A study of Mus musculus with 4 samples.

Results

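The PGC-1 coactivators Ppargc1a, Ppargc1b and Pprc1 and their partners Esrra, Nrf1 and Tfam were followed in mouse liver after fasting and refeeding. They were chosen by gene name among the non-control spots of the array, every probe included, and are 6 of 31829 gene names and 11 of 39429 probes. The study asked whether changes in the DNA binding of the transcription factor CREB play a part in the response of liver genes to fasting, and used the arrays to find which transcripts differ. Both groups were male mice of the C57BL/6J strain, 8 to 12 weeks old: the fasted group had food removed for 24 h, and the refed group had the same 24 h fast followed by 2 h with food, so the refed mice had been fasted too and no mouse was fed throughout. RNA of 4 fasted and 4 refed livers, 200 ng each, was compared on 4 two-colour arrays, each holding 1 fasted and 1 refed liver. Each array is called a replicate (n = 4). The fasted liver carried the dye Cy5 on replicates 1 and 2 and Cy3 on replicates 3 and 4, with the other dye on the refed liver, and every ratio is turned so that a positive log2 value is a higher signal in the fasted liver.

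PGC-1 proteins are coactivators: they do not bind DNA themselves but dock on transcription factors and bring in enzymes that open chromatin and the Mediator complex. PGC-1alpha (Ppargc1a) is known in liver as a link between fasting and glucose production, since glucagon raises cAMP, cAMP activates CREB and its coactivator CRTC2, and these switch on Ppargc1a, whose product then works with HNF4alpha and FOXO1 at gluconeogenic genes. PGC-1beta (Ppargc1b) works with ERRalpha and with the lipogenic factor SREBP1, and PRC (Pprc1) is the family member best known as an early response to growth signals. ERRalpha (Esrra) is a nuclear receptor without a known hormone, NRF1 (Nrf1) binds promoters of nuclear genes for respiration, and TFAM (Tfam) packages and transcribes mitochondrial DNA.

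Promoters of 3 members are shown, those of the members in which a searched motif of a factor named here was found in the main window. Each is the 250 bases before the RefSeq gene start, in build GRCm38.p6, on the strand of the gene (the minus strand for all 3), with the searched motif in capitals. The Ppargc1a window, chr5:51567726-51567975, has a CRE core site, the core of the sequence CREB binds, read on the opposite strand, so that TGACG appears in capitals as CGTCA. The Esrra window, chr19:6921809-6922058, has the NRF1 core site GCATGCGC, and the Tfam window, chr10:71238045-71238294, has the motif CCGGAAG of ETS factors such as NRF2 (GABP).
Ppargc1a: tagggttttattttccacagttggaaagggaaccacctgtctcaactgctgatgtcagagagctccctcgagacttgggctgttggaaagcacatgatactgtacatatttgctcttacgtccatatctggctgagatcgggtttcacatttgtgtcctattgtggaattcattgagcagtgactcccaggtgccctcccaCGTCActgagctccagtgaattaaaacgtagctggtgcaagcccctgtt
Esrra: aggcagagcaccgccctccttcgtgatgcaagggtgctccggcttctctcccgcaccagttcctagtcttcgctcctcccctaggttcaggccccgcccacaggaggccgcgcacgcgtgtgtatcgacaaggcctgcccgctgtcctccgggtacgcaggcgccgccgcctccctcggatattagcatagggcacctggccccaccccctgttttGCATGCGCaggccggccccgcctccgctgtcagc
Tfam: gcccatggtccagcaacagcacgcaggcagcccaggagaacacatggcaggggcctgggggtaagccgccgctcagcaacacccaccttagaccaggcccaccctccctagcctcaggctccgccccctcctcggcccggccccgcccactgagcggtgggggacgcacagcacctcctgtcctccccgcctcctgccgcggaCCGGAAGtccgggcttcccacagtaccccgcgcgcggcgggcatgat
The core site of Ppargc1a lies 49 to 45 bases before the start, that of Esrra 34 to 27 bases and the ETS motif of Tfam 47 to 41 bases. Motifs were searched on both strands. Of 32851 promoter windows of the same length, 17.8% held TGACG, 2.26% held GCATGCGC and 6.91% held CCGGAAG. The full CRE, TGACGTCA, which overlaps the core site and was in 1.55% of windows, was in none of the windows of Ppargc1a, Esrra, Tfam, Nrf1 and Pprc1. The same holds for the ERR core site AAGGTCA (4.08% of windows) and the forkhead motif GTAAACA (3.17%). Nrf1 has a pair of windows in the table, and the second holds TATAAA, a motif of 12.4% of windows, on the opposite strand. The Pprc1 window held none of the 7 motifs. Ppargc1b has no window in the table. A match only says that the letters are there.

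The median brightness of gene spots was 40 to 75 in red and 44 to 96 in green on the 4 arrays, over local backgrounds of 20 to 35, no spot was saturated, and 19721 probes passed the filter on dim signals (below). All 7 hepatocyte markers on the array were well above background in all 8 channels, with median log2 ratios of 0.33 and 0.40 on replicates 1 and 2, where the fasted liver was in Cy5, and of -0.24 and -0.10 on replicates 3 and 4. Ratios of kept probes correlated at r = 0.66 and 0.75 between arrays of 1 dye orientation and at 0.22 to 0.40 across orientations, probes not being independent replicates. The 6 skeletal muscle markers, of interest because muscle also uses these coactivators, were above background in none. Of 13 pancreatic acinar markers, which had a median log2 ratio between -0.08 and 0.01 on replicates 1, 2 and 4, the median on replicate 3 was -3.79, with the higher signal in the refed liver. The 6 blood cell markers had medians of 1.24 and 1.75 on replicates 1 and 3 and of -0.25 and 0.24 on replicates 2 and 4. In bulk liver, fewer cells of a type and less RNA per cell cannot be told apart.

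Ppargc1a was the only one of the 6 genes called, and it was higher in fasted liver. A call required limma's Benjamini-Hochberg adjusted p, taken over all kept probes, to be below 0.10, with 1.5-fold or more between the groups. Of the 9 member probes that passed the filter, 1 was called higher, where 1.7% of all kept probes were called higher and 2.08% lower. None of the 9 was called lower by limma, by an unadjusted p under 0.05 (11.8% of kept probes) or by the rebuilt SAM test (2.23%). The filter kept probes well above background on all 4 arrays in at least 1 condition; the 2 member probes it left out both belong to Nrf1. Of the 9 kept, 7 were well above background in both groups on all 4 arrays.

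The brighter Ppargc1a probe lies at chr5:51848928-51848987 in build mm9, on the minus strand. On replicates 1 to 4 its normalised intensity in fasted liver was 9.36, 8.63, 9.01 and 8.68 on the log2 scale. In the refed liver of the same arrays it was 8.39, 7.30, 7.77 and 7.43. All 4 fasted livers were above all 4 refed livers, which was so, in one direction or the other, for 13.6% of kept probes. The raw pixel medians were 349.5 to 565.5 in fasted and 130.5 to 229.5 in refed liver, over local backgrounds of 20 to 34.

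The log2 ratio of this probe was 0.97, 1.33, 1.25 and 1.25 on the 4 arrays, a mean of 1.20 ± 0.16 (SD, n = 4), or 2.30-fold with a 95% interval of 1.99 to 2.65. Its adjusted p in limma was 0.00338. Only 69 kept probes, 0.35%, had a higher mean ratio. The mean ratio was 1.15 with the fasted liver in Cy5 and 1.25 with it in Cy3. On replicates 1 and 3, where blood markers were higher in the fasted liver, the ratio was 0.97 and 1.25, against 1.33 and 1.25 on replicates 2 and 4. Leaving out each array in turn, replicate 3 with its pancreatic markers included, gave means of 1.16 to 1.28, and the probe was called each time.

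A second Ppargc1a probe, at chr5:51846926-51846985 in mm9 and 2002 bases further along the transcript, was much closer to background. It was well above background in all 4 fasted livers and in the refed livers of replicates 1 and 3, and 3.13% of kept probes were dimmer. Its log2 ratios were 0.69, 0.47, 0.38 and 0.28, a mean of 0.45 ± 0.18 (SD, n = 4). This probe passed the filter through the fasted group alone and its refed signal was not well above background on replicates 2 and 4, so its ratios are given as a description, with no fold and no p.

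**Figure D1:**
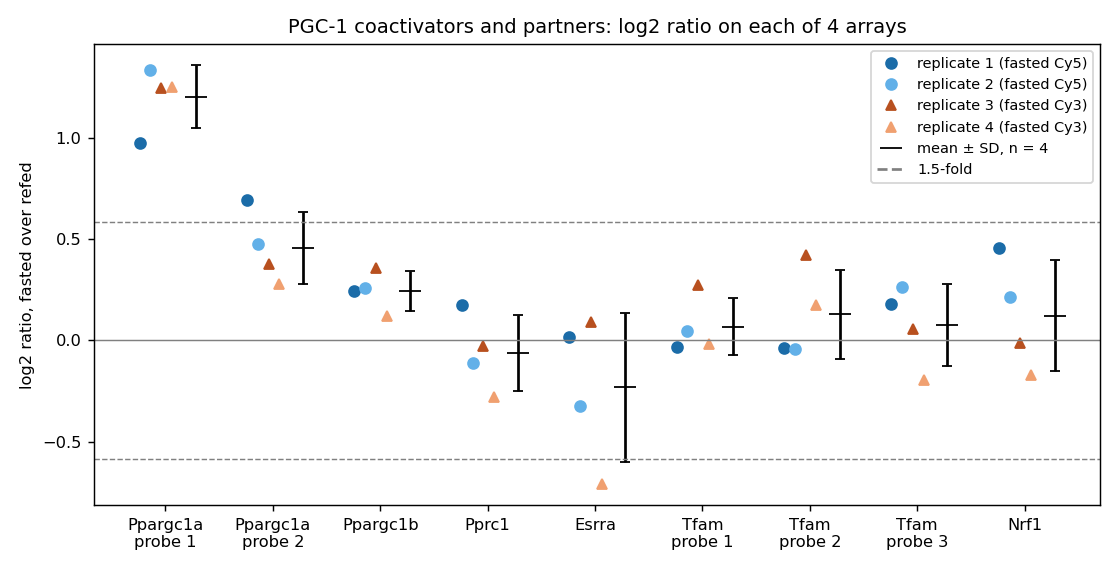
Log2 ratio of fasted over refed liver for the 9 kept probes of the 6 genes, one point per array (circles, fasted liver in Cy5; triangles, fasted liver in Cy3), with the mean ± SD of 4 arrays in black and the 1.5-fold limits dashed. Probe 1 of Ppargc1a sits between 0.97 and 1.33, above the limit on every array, while the points of Pprc1, Esrra, Tfam and Nrf1 lie on both sides of 0.

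Ppargc1b, the second coactivator, was not called, with a mean ratio that differed between background treatments and sources of values (below). Its probe had fasted intensities of 6.81, 6.62, 6.91 and 7.0 on the log2 scale and refed intensities of 6.57, 6.37, 6.55 and 6.88, so the groups overlapped. Within each array the fasted liver was higher, by 0.24, 0.26, 0.36 and 0.12, a mean of 0.24 ± 0.098 (SD, n = 4). Having 1 sign on all 4 arrays was common, at 29.6% of kept probes. The fold was 1.18, with a 95% interval of 1.05 to 1.34, and the adjusted p in limma was 0.120. With a dye term it was 0.0531, still under the fold limit.

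Pprc1, the third coactivator, had log2 ratios of 0.17, -0.11, -0.03 and -0.28, a mean of -0.06 ± 0.19 (SD, n = 4). Its probe, at chr19:46147311-46147370 in mm9, was dim: the fasted intensities of 6.26 to 6.46 lay within the refed range of 6.28 to 6.54 apart from replicate 4, where the fasted liver was not well above background. It passed the filter through the refed group alone, so its ratios too are a description, with no fold and no p.

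Of the transcription factors, Esrra had the widest spread. Its probe, at chr19:6985503-6985562 in mm9, was bright, with more signal than 86.1% of kept probes, so the local background counted for little. Fasted intensities were 11.70, 11.46, 11.49 and 11.26 and refed intensities 11.68, 11.79, 11.40 and 11.97 on the log2 scale. The log2 ratios were 0.02, -0.33, 0.09 and -0.71, close to 0 on replicates 1 and 3 and lower in fasted liver on replicates 2 and 4. The mean was -0.23 ± 0.37 (SD, n = 4), the fold 0.851 with a 95% interval of 0.671 to 1.08, and the adjusted p in limma 0.417.

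Nrf1 had a kept probe at chr6:30103035-30103094 in mm9, with log2 ratios of 0.46, 0.22, -0.01 and -0.17 and a mean of 0.12 ± 0.27 (SD, n = 4). Both positive ratios came from the arrays with the fasted liver in Cy5, where the mean was 0.34, against -0.09 on the other pair. The dye effect was 0.21 on the log2 scale (limma, adjusted p = 0.120), and the adjusted p for fasting was 0.620. Of the other Nrf1 probes, one was well above background in 2 fasted and 1 refed liver and the other in none, so neither gives a fold. None of the 9 kept member probes had a dye effect by limma's adjusted p while 14.8% of all kept probes had one; at an unadjusted p under 0.05 it was 2 of the 9, against 27.4% of all kept probes.

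Tfam was measured by 3 kept probes, and none was called. The brightest, at chr10:70691103-70691162 in mm9, had fasted intensities of 9.86, 9.83, 9.91 and 9.97 and refed intensities of 9.89, 9.79, 9.63 and 9.99 on the log2 scale. Its log2 ratios were -0.03, 0.04, 0.28 and -0.02, a mean of 0.07 ± 0.14 (SD, n = 4), and the adjusted p in limma was 0.708. The 95% interval of the fold was 0.913 to 1.20. The second probe, 157 bases away, gave a mean of 0.13 and an adjusted p of 0.537. The third, 2237 bases away, gave 0.08 and 0.721. Mean differences between these probes lay between -0.06 and 0.05, with both signs among the 4 arrays for each pair.

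**Figure D2:**
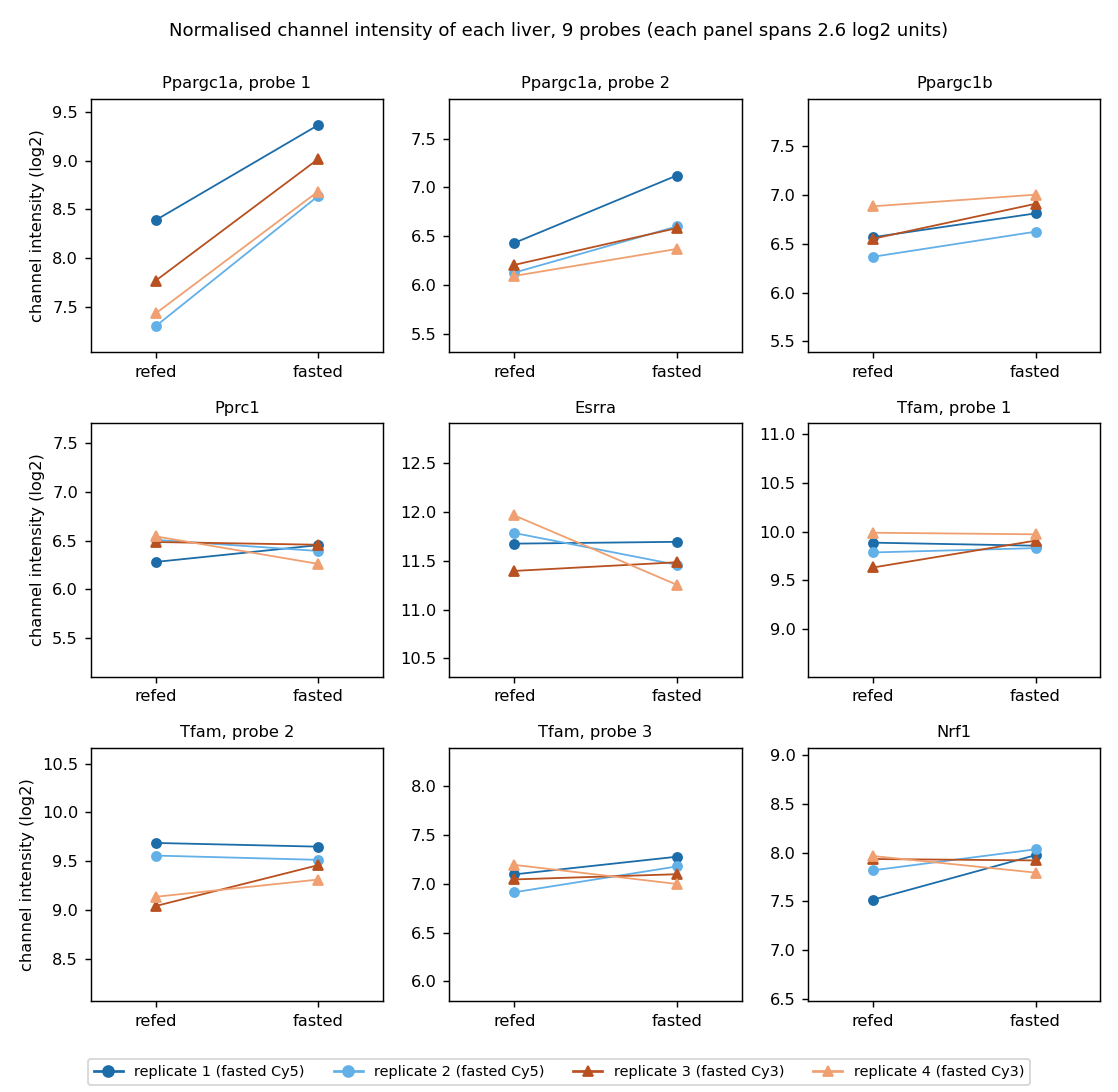
Normalised intensity (log2) of the refed and the fasted liver of each array, joined by a line, for the 9 kept probes; colours mark the 4 arrays and symbols the dye of the fasted liver. All panels span the same range, heights are not comparable between probes, and only in the first panel, Ppargc1a probe 1, do the fasted values (8.63 to 9.36) lie wholly above the refed values (7.30 to 8.39).

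Set against the other members array by array, the Ppargc1a ratio was higher on 4 of 4 arrays in all 5 pairs. The difference in log2 ratio was 0.96 ± 0.18 (SD) from Ppargc1b and 1.13 ± 0.17 from Tfam. It was 1.08 ± 0.39 from Nrf1, 1.26 ± 0.33 from Pprc1 and 1.43 ± 0.46 from Esrra. The pair with Pprc1 was not tested, since that probe was not above background throughout. For each of the other 4 pairs an exact two-sided sign-flip test gave p = 0.125, also after adjustment over these 4; this is the smallest p that 4 arrays allow.

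The size of the response of the dim probes differed between background treatments and sources of values. The processed signals and the deposited ratios did not go through the loess step used here. Background and normalization cannot be told apart in their differences from the reported setting. The values above come from a fit (normexp) that adds an offset of 50 to every signal, which pulls the ratios of dim spots towards 0. Without the offset, a setting chosen after seeing the data, the log2 ratio of the second Ppargc1a probe was 1.61, 1.35, 0.91 and 0.68, a mean of 1.14 ± 0.42 (SD, n = 4). With the scanner software's own processed signals it was 1.93, 1.85, 1.26 and 1.27, a mean of 1.58 ± 0.36. The first Ppargc1a probe was then at 1.59 ± 0.22. The size of the second probe's ratio is uncertain, since it was well above background in only 2 of the 4 refed livers. In the ratios deposited by the authors the probes stood at 1.34 and 0.70. No call of the second probe is counted under any setting, since it passed the filter through the fasted group alone. One setting ended the call of the brighter probe: with normexp fitted to all spots, those of extreme local background included, its ratio stayed at 0.97 and 1.33 on replicates 1 and 2 but was 0.07 on each of replicates 3 and 4, for a mean of 0.61 (limma, adjusted p = 0.559).

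Ppargc1b also differed between these settings. Its mean log2 ratio was 0.24 with the offset of 50, 0.51 without it, 0.56 after plain subtraction and 0.36 in the deposited ratios, and it was called in none of these. With the software's processed signals its ratios were 0.72, 1.06, 0.83 and 0.38, a mean of 0.75 ± 0.29 (SD, n = 4), and it was called (limma, adjusted p = 0.0271). The fasted liver was higher on 4 of 4 arrays under each of these settings. Pprc1, also dim, had ratios of both signs: with processed signals they were 0.44, -0.23, -0.28 and -1.11, a mean of -0.30 ± 0.64 (SD, n = 4), and its SD without the offset was 0.48. The bright Esrra and Tfam probes moved less: Esrra gave -0.24 without the offset and -0.21 with processed signals, and the brightest Tfam probe 0.08 and 0.16.

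**Figure D3:**
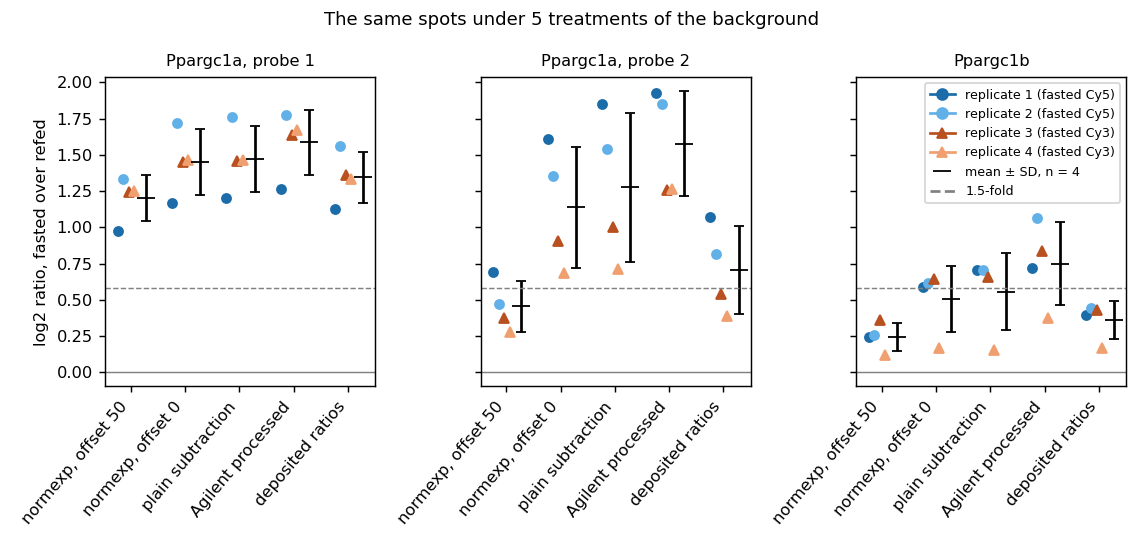
Log2 ratio of fasted over refed liver for both Ppargc1a probes and Ppargc1b under 5 settings, one point per array. The settings differ in background treatment, and the processed signals and deposited ratios also did not go through the loess step used here. The mean ± SD of 4 arrays is in black and the 1.5-fold limit is dashed. The dim second Ppargc1a probe runs from 0.45 to 1.58 and Ppargc1b from 0.24 to 0.75, while the brighter Ppargc1a probe stays between 1.20 and 1.59.

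The genes whose ratios lay nearest to those of Ppargc1a over the 4 arrays, among 15588 named genes, were Brap, Ulk1, Eif1, Rnd1 and Tcp11l2. The measure was the root mean square difference of log2 ratios, which was 0.137 for Brap, 0.164 for Ulk1, 0.176 for Eif1, 0.182 for Rnd1 and 0.195 for Tcp11l2. Their mean log2 ratios ran from 1.09 to 1.34. Ulk1 is the kinase that starts autophagy, Eif1 helps the ribosome find the start codon, and Brap is a ubiquitin ligase of the Ras pathway.

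The signals that act on Ppargc1a and its protein were represented by 23 genes, all kept, of which none was called by limma; 4 were higher and 1 lower at an unadjusted p under 0.05, and the rebuilt SAM test called 1 higher. Over all 16085 kept genes, 1.82% were called higher and 2.13% lower by limma, 10.3% were higher and 11.7% lower at an unadjusted p under 0.05, and SAM called 2.02% higher and 2.27% lower; these shares are the background for each list that follows. The list's median log2 ratio was -0.05, against 0.0033 over all kept genes. Of these genes, 2 activators passed the adjusted p, as 10.9% of kept probes did, without reaching 1.5-fold. Crtc2, the cAMP-sensing partner of CREB, was higher by 0.44, 0.42, 0.64 and 0.49, a mean of 0.50 ± 0.099 (SD, n = 4) and an adjusted p of 0.0204; its second kept probe was at 0.14. Sirt1, the deacetylase that activates the PGC-1alpha protein, was at 0.26, 0.55, 0.57 and 0.47, a mean of 0.46 ± 0.14 and an adjusted p of 0.0323. Sik1, a kinase that keeps CRTC2 out of the nucleus and is itself switched on by CREB, had a larger mean of 0.82 but ranged from -0.06 to 1.48, and its adjusted p was 0.120. Creb1 itself, not well above background throughout both groups, was at -0.11 ± 0.093.

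Among 24 transcription factors that PGC-1 proteins are known to coactivate, 22 were kept, 1 was called lower and none higher in limma, with 7 higher and 2 lower at an unadjusted p under 0.05 and 1 higher and 1 lower by the rebuilt SAM test. The gene called lower was Srebf1, the insulin-driven factor of fat synthesis, at -0.32, -1.15, -1.32 and -0.91, a mean of -0.93 ± 0.44 (SD, n = 4) (limma, adjusted p = 0.0313). It was not called without replicate 2 or without replicate 3. Thra, a thyroid hormone receptor, was higher by a mean of 0.52 ± 0.068 at an adjusted p of 0.0159, and Rora, a receptor of the clock, by 0.39 ± 0.14 at 0.0466; both were under the fold limit. Foxo1, the partner of PGC-1alpha at gluconeogenic genes, had a mean of 0.62, drawn up by 1.37 on replicate 2, and an adjusted p of 0.115. Ppara, the receptor that PGC-1alpha joins at genes of fat oxidation, had a mean of 0.51 and an adjusted p of 0.177. The median of the list was 0.04, and -0.00095 with median centring.

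The chromatin and Mediator partners, 13 kept of 14, held no call in either direction in limma or in the rebuilt SAM test, with 1 higher and 1 lower at an unadjusted p under 0.05 and a median of -0.03. Those were Ncoa2, a steroid receptor coactivator, at 0.29 ± 0.093 (SD, n = 4), and Cdk7, a kinase of the transcription machinery, at -0.39 ± 0.19. Of 10 corepressors and brakes, all kept, Trib3 was called higher. Trib3, a pseudokinase that blocks AKT and is a known target of PGC-1alpha in fasted liver, was at 1.38, 0.59, 0.82 and 0.21, a mean of 0.75 ± 0.49 (limma, adjusted p = 0.0690). The call was lost without replicate 1, 2 or 3.

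Hepatic genes known as PGC-1alpha targets were the list with most calls. Of 20, all kept, 9 were called higher and 1 lower, and their median log2 ratio was 0.45. G6pc, the enzyme that releases free glucose, had the largest mean ratio of the list and rose by 3.17 to 4.07 on the log2 scale (mean 3.60, adjusted p 0.0017 in limma), and Pck1, which feeds gluconeogenesis, by 2.27 to 3.72 (mean 2.66, adjusted p 0.0062). Lpin1, itself a coactivator of PPARalpha together with PGC-1alpha, rose by 1.90 to 3.92 (mean 2.67, adjusted p 0.0113). Got1 and Tat, which handle amino acid nitrogen, had means of 1.58 and 0.84, and Pdk4, which holds pyruvate back from oxidation, 1.49. Fgf21, a fasting hormone, and Cpt1a, the gate of mitochondrial fat oxidation, had means of 1.11 and 0.78. Pdk4 was at 0.54 and 0.60 with the fasted liver in Cy5 and at 1.98 and 2.86 with it in Cy3, and Got1 the other way round, at 2.14 and 2.25 against 1.45 and 0.47. The calls in this list dropped from 9 higher to 4 without replicate 2 and also to 4 without replicate 3; Got1, Tat, Pdk4 and Fgf21 were among those lost both times. The part of the blood and pancreatic signal in the list values was not tested.

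Alas1, the first enzyme of heme synthesis and a textbook target of PGC-1alpha, went the other way from Ppargc1a. Its log2 ratios were -0.95, -1.18, -1.83 and -1.66, all lower in fasted liver, a mean of -1.40 ± 0.41 (SD, n = 4) (limma, adjusted p = 0.0106), and a second kept probe was at -0.93. Sirt3, a mitochondrial deacetylase, was at 0.56, 0.53, 0.51 and 0.61; with a mean of 0.55 ± 0.041 and an adjusted p of 0.0134 it stopped just short of 1.5-fold.

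The genes further down the pathway were counted against the same shares over all kept genes. At such shares a low count in a short list says little about its genes. Of 20 genes that copy and transcribe mitochondrial DNA, 19 were kept, 1 was called higher and none lower in limma; 3 were higher and 2 lower at an unadjusted p under 0.05, and the rebuilt SAM test called 1 higher and none lower. The gene called was Polg2, the accessory subunit of the mitochondrial DNA polymerase, at 0.82, 0.70, 0.50 and 0.48, a mean of 0.62 ± 0.16 (SD, n = 4) with an adjusted p of 0.0169. Its second kept probe was at 0.23, and the call was lost without replicate 1. Tfb2m, the factor that works beside TFAM at mitochondrial promoters, was at 0.30 ± 0.11 with an adjusted p of 0.0760, under the fold limit. Mgme1, a mitochondrial exonuclease, was at -0.44 ± 0.087; it was not well above background throughout both groups, so no p is given, though it is among the 2 lower.

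Nuclear-encoded respiratory genes with known NRF1 or ERRalpha sites, 28 kept of 29, held no call in either direction in limma or in the rebuilt SAM test, and 2 were higher at an unadjusted p under 0.05. Their mean log2 ratios ran from -0.21 for Cs (citrate synthase) to 0.26 for Etfdh, which passes electrons from fat oxidation to ubiquinone. The median was 0.09, with 22 of the 28 means above 0, where 50.8% of all kept genes had a mean above 0. Centring each array on its median in place of loess turned the list median to -0.07, with 8 of 28 above 0, and moved the median of all kept genes to -0.06, with 37.4% above 0. The array medians of the list were 0.08, 0.17, 0.11 and -0.06.

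**Figure D4:**
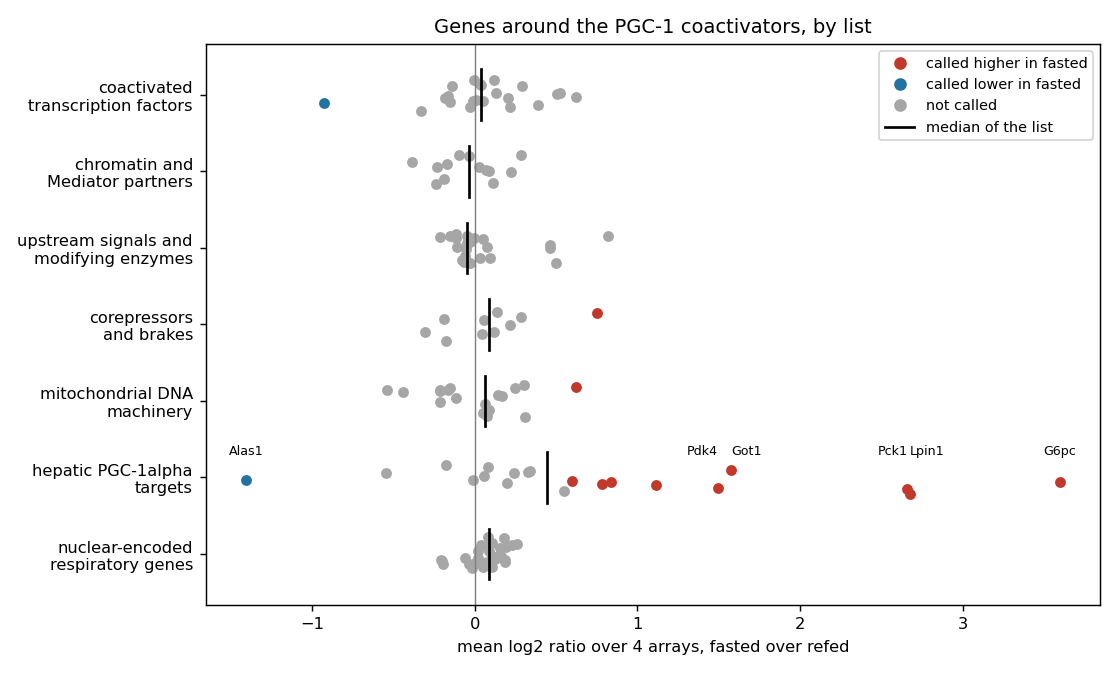
Mean log2 ratio of fasted over refed liver (4 arrays) for each kept gene of 7 lists around the PGC-1 coactivators; red and blue points were called higher and lower, grey points were not called, black bars are list medians and the vertical spread within a row has no meaning. The hepatic target row reaches from Alas1 at -1.40 to G6pc at 3.60, and the respiratory row stays between -0.21 and 0.26.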

How the data were processed

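Total RNA of individual livers was measured on Agilent whole mouse genome arrays, and the authors quantified the scans with Feature Extraction. The deposited scanner files give, per spot, raw and processed intensity with local backgrounds and flags. A deposited table holds log2 ratios normalized by the authors by loess (limma). How background was treated there is not given in the sources used here. Its values ran as fasted over refed (r = 0.975 to 0.992 with the ratios computed here, column medians -0.117 to 0.056).

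Median signals of 44397 spots were processed with limma 3.58.1 in R 4.3.3. Spots with a local background over 3 times the array median (0 to 29 per array) and flagged spots (197 to 322) were left out. The background limit was set with earlier results of these data known, since normexp had failed on some arrays with those spots. Background correction was normexp (offset 50), ratios were normalized by loess, and channel values were taken after Aquantile. Kept probes had a value on every array and lay well above background in all 4 fasted or all 4 refed livers. Tests used lmFit and eBayes on the 4 turned ratios, two-sided, with Benjamini-Hochberg adjustment; a call needed an adjusted p under 0.10 and 1.5-fold. SAM, named in the study's methods, was rebuilt as an alternative. A gene entered a list by its brightest kept probe. Named were all members, in each list the called genes (up to 6 by size) and up to 3 more needed to state a count (more were named in the target and transcription factor lists, after their values were seen), and the 5 genes nearest to a called member. Members and lists were chosen with earlier results of these data known. Of 194 list entries, 182 matched by symbol, 8 by older symbol, 2 by synonym and 2 were not on the array. Probe coordinates are those of the files (mm9), and exon annotation of that build was not used. Promoters are from RefSeq (GRCm38.p6), where 5 of 6 members matched. The steps were tested on simulated data. Alternatives covered background, value source, normalization, filters, a dye term, separate channels, thresholds and leaving out each replicate.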

Additional observations from a re-analysis of the deposited data

How the results depend on the processing

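Ppargc1a was called higher in 18 of 19 alternatives, with log2 ratios of 0.61 to 1.59, and its difference from each other member was above 0 in each setting that changed the values and kept both probes (the software's background flags left out Ppargc1b and Esrra). The exception was normexp on all spots, which gave a Ppargc1a ratio of 0.61 with a dye effect of 0.54 (limma, adjusted p = 0.0880), a Pprc1 ratio of 0.014, -0.0026 for the second Tfam probe, 5 probes higher and 15 lower in all, and for the lists 1 target higher and 0 other calls. The Ppargc1a ratio was then 0.07 on each of replicates 3 and 4. Ppargc1b was called in 1 of 18, the processed signals (0.75). All probes called were 335 higher and 410 lower in the reported setting, 550 and 714 with plain subtraction, 685 and 904 with processed signals, 527 and 668 with an offset of 0 (chosen after seeing the data), 935 and 1208 without a fold limit, and 208 to 413 and 256 to 525 leaving out each replicate, the lowest without replicate 3. Median centring gave 230 higher and 635 lower, so 26.6% of calls were higher in place of 45.0%. With normexp on all spots it was 25.0%. Median centring moved Esrra to -0.38 and Tfam to -0.054. The mitochondrial DNA list went to a median of -0.077 with 0 called higher, the target list to 0.31 and the respiratory list to -0.071. The background flags of the software gave 0 mitochondrial DNA genes higher and a target median of 0.61. In the other lists single calls came and went, between 0 and 2 in each direction: 2 upstream and 2 transcription factor genes were higher with processed signals and without a fold limit, 1 of each with plain subtraction, a dye term, separate channels and SAM, and 1 upstream gene with the deposited ratios and the offset of 0. Trib3 was lost (0 corepressors higher) without the filter and at an adjusted p under 0.05. Leaving out each replicate gave 4 to 9 targets higher with a median of 0.39 to 0.57 and 0 to 1 calls in the other lists. Pprc1 was then at -0.14 to 0.010 and Tfam at -0.0010 to 0.10. Esrra ran from -0.34 to -0.073 and Nrf1 from 0.010 to 0.22, each keeping its sign. Dye effects, all uncalled in the reported setting, changed sign for Ppargc1a (0.011 with plain subtraction, -0.14 to 0.043 leaving out each replicate), Ppargc1b (-0.0012 with median centring, -0.054 to 0.066), Esrra (-0.013 with processed signals, -0.12 to 0.28) and Tfam (-0.13 to 0.011). The cause of these changes was not tested.

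The ratio within an array is the reported, paired value. Treating each channel as a sample with no replicate block gave the same Ppargc1a ratio of 1.20 (limma, adjusted p = 0.0102), with 342 probes higher and 415 lower, and changed no call of a member. The distance from background limits the second Ppargc1a probe, Ppargc1b, Pprc1 and the Nrf1 probes left out.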
